A study of Mus musculus with 18 samples.

Results

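Kcna2, Kcna3 and Kcnn4 are the 3 potassium channel genes described here, out of 18194 genes that were each read by 1 probe set. They were listed by name as channels of T cells with earlier results of the same arrays in view, and Kcna2 was chosen by the fall of its main probe set in cells given IL-2. All 7 probe sets annotated to these genes were read, and the brightest of them on average stood for its gene. The main Kcna2 probe set was made from an expressed sequence tag, and whether that tag belongs to the Kcna2 transcript or to a neighbouring one was not analysed here, so every level given for Kcna2 is that of a probe set annotated to it. The differences of Kcna2 from media control, and its differences between IL-2 and other cytokines, are therefore given as a description with no test.

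RNA came from antigen-activated CD8 T cells of male OT-I TCR Tg mice (OT-I Thy1.1 TCR Tg in the methods), whose transgenic T cell receptor recognises a peptide of ovalbumin, so that all groups share this receptor and the same priming. The purified cells were stimulated for 48 hours with irradiated splenocytes loaded with that peptide, viable cells were enriched on a density gradient, and the cells were then kept for 24 hours in complete RPMI. The media control received no cytokine, and the other groups received IL-2 or IL-15, IL-4, IL-7 or IL-21, each a recombinant murine protein at 100 ng/ml. Each of the 6 groups had 3 biological replicates, and the age of the mice and the number of animals behind a replicate are not given in the sources used here. Legends of the study call the cells re-purified before this second culture, while its methods name the gradient alone for that step.

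Levels are log2 values per probe set from Affymetrix mouse arrays with a 3′ design, so a difference of 1 is a 2-fold change. Levels of different probe sets were not set against each other, except to pick the brightest and to place levels against a background. Replicate 3 of IL-15, IL-2 and media control had array medians of 4.47 to 4.52 as deposited, while the other 15 arrays had medians of 5.76 to 5.84. For this reason the 18 arrays were quantile normalized once more before the comparisons. The RNeasy kit served for replicates 1 and 2, and TRIzol followed by Direct-zol for replicate 3. The distance between the 3′ and 5′ actin probe sets, a sign of RNA integrity, was 0.16 to 0.34 in replicates 1 and 2, 0.38 to 0.42 in the other replicate 3 arrays and 0.42 to 0.50 in the 3 arrays on the lower scale, and its part in the results below was not tested. A level under 7.44, the 95th percentile over 31 genes not expected in T cells, was taken as under background, where the size of a change is not exact.

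T cells hold their membrane potential negative with potassium channels. Kv1.3, encoded by Kcna3, opens when the membrane depolarises, and KCa3.1, encoded by Kcnn4, opens when calmodulin on the channel binds calcium. The potassium that leaves through them keeps up the electrical drive for calcium to enter through ORAI channels, which STIM proteins open once the endoplasmic reticulum store is depleted. Calcium then activates calcineurin, which sends NFAT into the nucleus. Kcna2 encodes Kv1.2, a relative of Kv1.3 known mostly from axons and able to form mixed channels with other Kv1 subunits. The 5 cytokines all signal through receptors that hold the common gamma chain and activate STAT proteins.

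The main probe sets of the 3 genes had lower means in the cytokine groups than in media control, for Kcna2 with IL-2 by its choice. The 250 bases before each start site are shown from RefSeq (GRCm38.p6, all on the plus strand), 5′ to 3′. Whether these bases have a part in the levels was not tested. Capitals mark a match on either strand to TTCNNNGAA (the STAT palindrome), GGAAA (the core of NFAT sites) or TGANTCA (the AP-1 site), and no matches overlapped. The windows are chr3:107035912-107036161 for Kcna3, chr3:107101317-107101566 for Kcna2 and chr7:24370013-24370262 for Kcnn4.
Kcna3: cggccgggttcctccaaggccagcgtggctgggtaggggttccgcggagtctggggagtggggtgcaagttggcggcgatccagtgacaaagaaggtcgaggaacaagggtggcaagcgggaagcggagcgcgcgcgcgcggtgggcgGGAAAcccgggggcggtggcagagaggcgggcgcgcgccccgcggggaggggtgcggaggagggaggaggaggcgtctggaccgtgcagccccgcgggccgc
Kcna2: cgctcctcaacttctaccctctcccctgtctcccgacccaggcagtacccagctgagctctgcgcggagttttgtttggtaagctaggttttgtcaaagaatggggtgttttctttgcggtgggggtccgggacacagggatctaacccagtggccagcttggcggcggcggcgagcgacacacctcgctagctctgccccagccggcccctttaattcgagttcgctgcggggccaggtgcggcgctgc
Kcnn4: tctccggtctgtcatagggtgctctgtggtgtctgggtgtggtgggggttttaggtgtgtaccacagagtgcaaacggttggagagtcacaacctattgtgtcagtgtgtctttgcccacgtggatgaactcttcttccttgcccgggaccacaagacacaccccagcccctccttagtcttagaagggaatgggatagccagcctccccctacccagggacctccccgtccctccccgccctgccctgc
GGAAA was found 1 time, in Kcna3, with its first base 102 bases before the start, and 55.6% of the 32851 promoter windows of this length hold it. TTCNNNGAA, held by 7.02% of windows, and TGANTCA, held by 6.75%, were in none of the 3. The share of G and C was 74.4% in the Kcna3 window, 62.4% in that of Kcna2 and 58.8% in that of Kcnn4, beside a median of 52.4% over all windows. The start site used for Kcna2 lies 10684 bases inside the annotated span of the gene, and that of Kcnn4 lies 437 bases inside, so these windows are not the only places where transcripts of the 2 genes may begin.

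Kcnn4 was the member whose main probe set was well above background on all 18 arrays. In media control its log2 level was 12.29, 12.39 and 12.40 in replicates 1, 2 and 3. With IL-2 the levels were 11.54, 11.68 and 11.32, and with IL-4 they were 11.44, 11.57 and 11.33. Every IL-2 and IL-4 array lay below every control array. The level fell by 0.84 ± 0.17 (SE, n = 3 against 3) on the log2 scale with IL-2, which is 1.79-fold (adjusted p = 0.00248, limma). With IL-4 it fell by 0.91 ± 0.17, which is 1.88-fold (adjusted p = 0.00257, limma).

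IL-21 gave Kcnn4 levels of 11.89, 11.84 and 11.48, also below all control arrays, and the fall of 0.62 ± 0.17 passed with an adjusted p of 0.0347 (limma). The IL-7 arrays, at 11.94, 11.92 and 11.74, did not overlap with media control either. Their difference of -0.49 ± 0.17 missed the threshold (adjusted p = 0.161) but passed when replicate numbers were a block (adjusted p = 0.0107). With IL-15 the levels were 12.23, 12.20 and 11.58, and the TRIzol array stood well below both RNeasy arrays. The difference was -0.35 ± 0.17 (95% interval -0.71 to 0.00, adjusted p = 1 and, with the block, 0.413), so a change was not detected with IL-15.

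**Figure D1:**
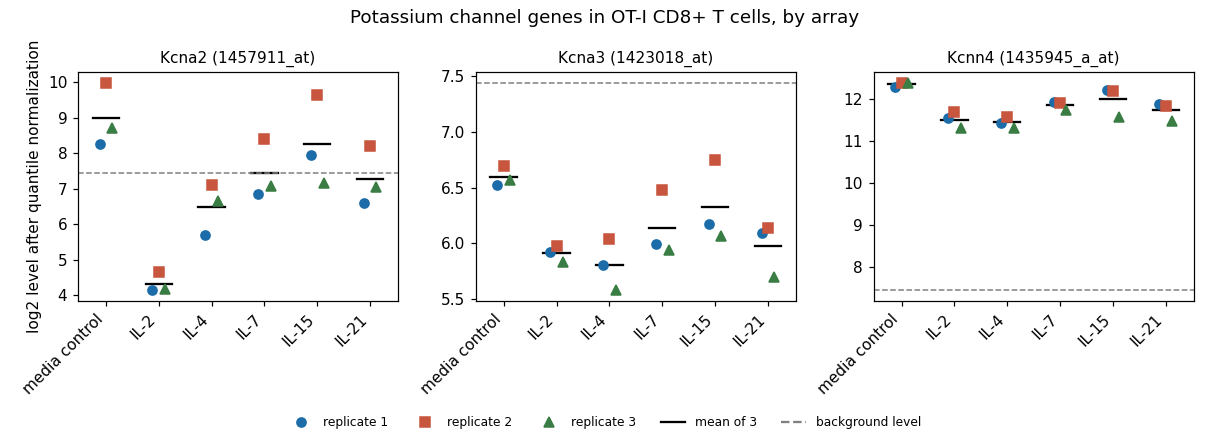
Log2 level after quantile normalization (vertical axis, a different range in each panel) of the main probe set of Kcna2, Kcna3 and Kcnn4 on each of the 18 arrays, by group. Points are arrays with a symbol per replicate number, black bars are means of 3 arrays, and the dashed line is the background level of 7.44. Media control has the highest mean in all 3 panels, IL-15 the next, and Kcna2 is lowest with IL-2.

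Kcna3, read by 1 probe set alone, was called lower with IL-2 and IL-4. Its levels were under background on all 18 arrays. These sizes are therefore not exact, and the levels do not show that the transcript was present. The control arrays read 6.53, 6.69 and 6.57. The IL-2 arrays read 5.92, 5.98 and 5.83 and the IL-4 arrays 5.80, 6.04 and 5.58, all below the lowest control. The level fell by 0.69 ± 0.19 with IL-2 (adjusted p = 0.0213, limma) and by 0.79 ± 0.19 with IL-4 (adjusted p = 0.016, limma). These are 1.61-fold and 1.73-fold on this scale.

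With IL-21 Kcna3 read 6.09, 6.14 and 5.70, again with no overlap with media control. The difference of -0.62 ± 0.19 missed the threshold (adjusted p = 0.0676) and passed with the replicate block (adjusted p = 0.00151). The IL-7 levels of 6.00, 6.48 and 5.94 gave a difference of -0.46 ± 0.19, with an adjusted p of 0.274, or 0.0164 with the block. With IL-15 the levels were 6.17, 6.75 and 6.06, one of them above the highest control array. The difference was -0.27 ± 0.19 (95% interval -0.67 to 0.14, adjusted p = 1 and, with the block, 0.552). Replicate 2 held the highest Kcna3 level in 6 of 6 groups.

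Kcna2 had the widest range of the members. Its main probe set read 8.25, 9.996 and 8.72 in media control, above background on all 3 arrays. With IL-2 it read 4.13, 4.64 and 4.16, near the median of 5.01 of the tissue genes. The IL-2 mean of 4.31 ± 0.29 (SD, n = 3) was 4.68 below the control mean of 8.99 ± 0.90, and because the lower level is under background the 25.6-fold ratio is not exact. This was the second largest fall of the 18194 genes with IL-2, and it is the value for which the gene was chosen.

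The other cytokines left intermediate Kcna2 levels. IL-4 arrays read 5.69, 7.12 and 6.67, all under background, IL-21 arrays 6.59, 8.21 and 7.04, and IL-7 arrays 6.86, 8.42 and 7.08. Their means differed from media control by -2.50 (IL-4), -1.71 (IL-21) and -1.54 (IL-7). IL-15 arrays read 7.95, 9.64 and 7.17, with a mean difference of -0.74. IL-4 and IL-21 arrays lay below all control arrays, whereas IL-7 and IL-15 arrays overlapped with them. The SE of each difference was 0.63, and 0.30 with the replicate block.

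Replicate 2 was highest for Kcna2 in 6 of 6 groups, as for Kcna3. The standard deviation pooled over groups was 0.86 for Kcna2, and 0.82% of all genes had a larger one, while it was 0.24 for Kcna3 and 0.20 for Kcnn4. Within a replicate number the Kcna2 differences were closer to each other. With IL-2 they were -4.12, -5.35 and -4.56 in replicates 1, 2 and 3, and with IL-21 they were -1.66, -1.79 and -1.68. The IL-15 difference was -0.30 and -0.36 in the RNeasy pairs and -1.55 in the TRIzol pair. It rested on single arrays, running from -0.20 without IL-15 replicate 3 and -0.23 without media control replicate 2 to -1.11 without media control replicate 1 and -1.43 without IL-15 replicate 2.

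Both extraction kits gave a lower level with IL-2 and IL-4 for every member. For Kcnn4 the mean RNeasy difference was -0.72 (IL-2) and -0.83 (IL-4), and the TRIzol difference -1.08 and -1.07. For Kcna3 the RNeasy values were -0.66 and -0.69 and the TRIzol values -0.74 and -0.99. The TRIzol difference was the larger one for both genes also with IL-21, where Kcnn4 differed by -0.47 in RNeasy and -0.92 in TRIzol and Kcna3 by -0.50 and -0.87. With IL-15 the Kcnn4 difference was -0.06 and -0.19 in the RNeasy pairs and -0.81 in the TRIzol pair. That of Kcna3 differed in sign between the RNeasy pairs, at -0.35 and 0.06, and was -0.51 in the TRIzol pair. The TRIzol arrays of IL-15, IL-2 and media control are those on the lower scale, so kit, replicate and scale cannot be told apart there.

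**Figure D2:**
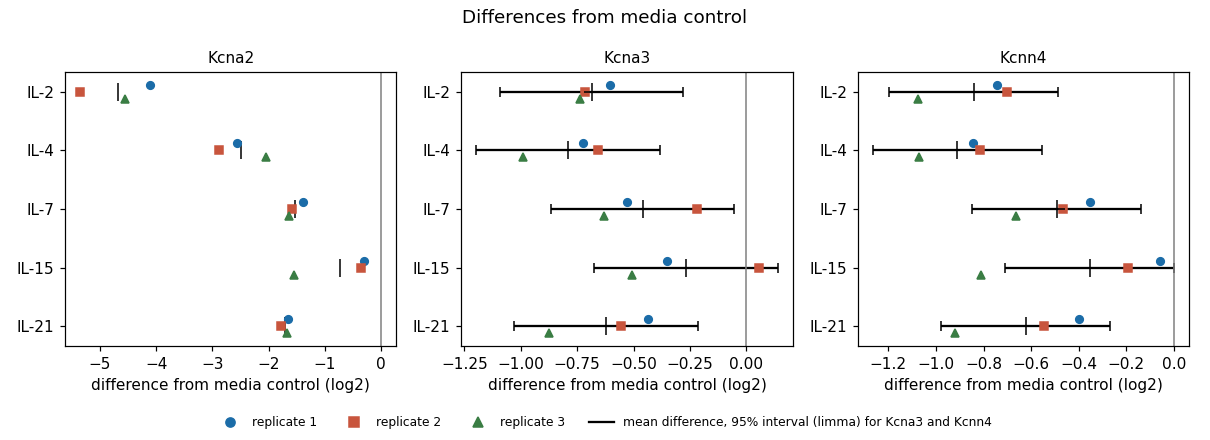
Difference from media control on the log2 scale (horizontal axis, a different range in each panel) for each cytokine and member. Symbols are differences within 1 replicate number, vertical ticks are mean differences, and horizontal bars are 95% limma intervals, drawn for Kcna3 and Kcnn4 only. All points lie at or below 0 except Kcna3 in replicate 2 with IL-15, at 0.06.

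Kcna3 and Kcnn4 both lay wholly below the control arrays with IL-21, IL-7, IL-4 and IL-2, and Kcnn4 did so with IL-15 too. Kcna2 did so with IL-2, where its choice fixed this, and with IL-4 and IL-21, where the control arrays are those its choice rested on. These Kcna2 cases are a description and are not set against the shares that follow. Of all genes tested, 12.4% lay wholly below in the IL-2 group, 11.9% for IL-4, 10.6% for IL-21, 10.1% for IL-7 and 1.6% for IL-15. By the limma fit, 8% of all genes were called lower for IL-2, 5.1% for IL-4, 3.29% for IL-21, 0.747% for IL-7 and 0% for IL-15. With the replicate block these shares were 15.1%, 12.9%, 10.5%, 8.01% and 0%. IL-15 had no call in the limma fit, and 390 genes had an unadjusted p under 0.05. The 5 comparisons share the 3 control arrays, and falls in several of them are not independent. In RNA from a whole culture, fewer cells that carry a transcript and less of it in each cell cannot be told apart.

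The calls for Kcna3 and Kcnn4 rest on the renewed normalization. On the values as deposited, with the 3 arrays on the lower scale, no call held. The Kcnn4 difference was then -0.78 with IL-2 (adjusted p = 1), -0.45 with IL-4 (adjusted p = 0.663) and -0.18 with IL-21 (adjusted p = 0.828), and that of Kcna3 was -0.72 with IL-2 (adjusted p = 1) and -0.35 with IL-4 (adjusted p = 0.694). Of the differences that passed with the block alone, that of Kcna3 was then -0.18 in the IL-21 group and -0.0032 in the IL-7 group, and that of Kcnn4 was -0.0468 in the IL-7 group. The median difference of all genes from media control was then 0.43 for IL-4, 0.41 for IL-7 and 0.43 for IL-21, and 9.3e-05 for IL-2. The sizes for IL-4, IL-7 and IL-21 on these values therefore hold a shift of whole arrays. Without those 3 arrays Kcnn4 kept its 3 calls and Kcna3 kept that with IL-4, but Kcna3 with IL-2 had an adjusted p of 0.0766. Among the arrays of the groups compared, leaving out some single arrays ended the Kcna3 calls (adjusted p up to 0.0859 in the IL-2 comparison and 0.0747 in that of IL-4), and leaving out any 1 of the 6 ended the IL-21 call of Kcnn4 (up to 0.155), but none ended the IL-2 or IL-4 call of Kcnn4. Those calls ended when all 6 arrays of replicate 1 (adjusted p = 0.0741 for IL-2, 0.0966 for IL-4) or of replicate 2 (0.0542, 0.0846) were left out, which leaves 2 arrays per group.

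The other probe sets did not all follow the main one. The second Kcnn4 probe set, designed from the RefSeq mRNA and above background on all 18 arrays, had a mean of 11.08 in media control, 10.67 with IL-15, 10.57 with IL-7, 10.37 with IL-21, 10.19 with IL-2 and 10.06 with IL-4. Its order was that of the main probe set, and in the fit over all 45101 probe sets it fell with IL-2 (-0.89 ± 0.18, adjusted p = 0.00473), IL-4 (-1.02 ± 0.18, adjusted p = 0.00341) and IL-21 (-0.71 ± 0.18, adjusted p = 0.0411). In that larger fit the main probe set lost its IL-21 call (adjusted p = 0.0524).

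The probe set made from the RefSeq mRNA of Kcna2 stayed between 4.57 and 5.12 on all 18 arrays, with a mean of 4.79 in media control and 4.70 with IL-2. Its differences from media control ran from -0.16 to 0.21. Another Kcna2 probe set from a sequence tag read 5.48 in media control, 5.28 with IL-15, 4.70 with IL-7, 4.38 with IL-21, 4.20 with IL-4 and 4.05 with IL-2. The last one read 4.37 in media control, 4.36 with IL-15, 3.67 with both IL-7 and IL-21, 3.51 with IL-4 and 3.50 with IL-2. Both had the order of the main probe set at their ends, with media control highest and IL-2 lowest, and all 3 of these other Kcna2 probe sets were under background on every array. The fall described for Kcna2 therefore rests on 1 probe set with levels above background, which is not known here to read the Kcna2 transcript.

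**Figure D3:**
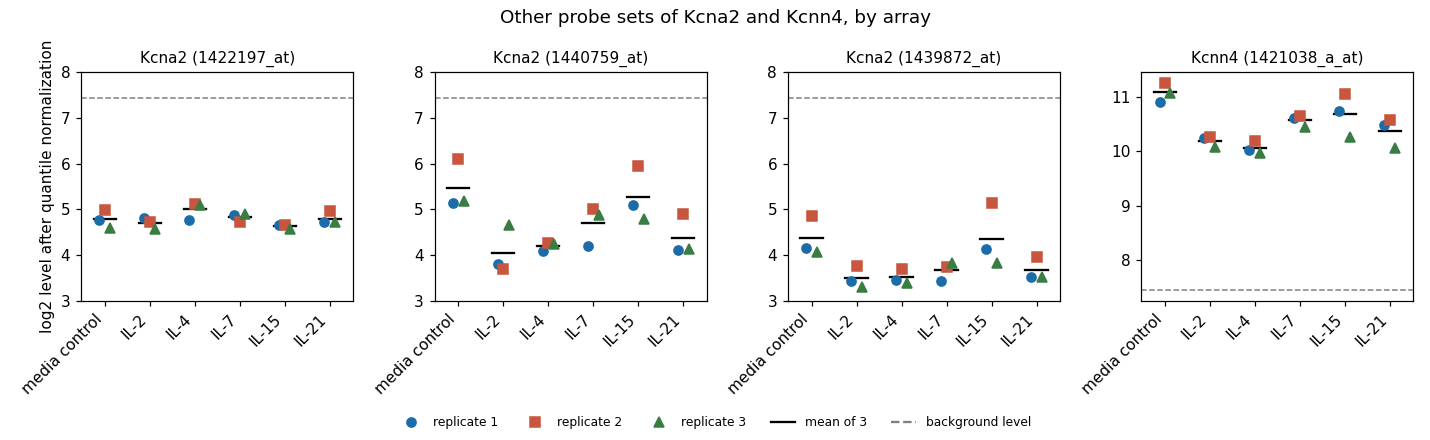
Log2 level after quantile normalization (vertical axis) of the 3 other Kcna2 probe sets and the second Kcnn4 probe set on the 18 arrays, by group, with symbols per replicate number, black bars for means of 3 and a dashed line at the background level of 7.44. The leftmost panel is the RefSeq-based Kcna2 probe set, whose arrays stay between 4.57 and 5.12, and the rightmost is Kcnn4, above background throughout.

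The order of the group means was media control, IL-15, IL-7, IL-21, IL-2 and IL-4 from highest to lowest for both Kcna3 and Kcnn4. Kcna2 had the same order except that IL-2 was below IL-4. No neighbouring pair of groups in the order of Kcna3 or Kcnn4 differed beyond its spread, the smallest adjusted p among them being 0.59, nor did a neighbouring pair of Kcna2 that was tested. IL-2 and IL-4 were close for Kcnn4, with a difference of 0.07 (95% interval -0.29 to 0.43), and for Kcna3, with 0.10 (95% interval -0.30 to 0.51). The Kcna2 level was 2.18 lower with IL-2 than with IL-4, and none of the 3 IL-2 arrays reached the lowest IL-4 array.

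In all, 26 differences between cytokines were tested for the members, and none passed by limma without the block, while 6 had an unadjusted p under 0.05. With the replicate block 6 passed, and each of them involved IL-15. The Kcna2 difference, IL-4 minus IL-15, was -1.76 (SE 0.30, adjusted p = 0.00115 with the block and 0.178 without) and IL-15 minus IL-21 was 0.97 (adjusted p = 0.0472 with the block and 0.639 without). For Kcnn4, IL-2 minus IL-15 was -0.49 (adjusted p = 0.00626 with the block and 0.0934 without) and IL-4 minus IL-15 was -0.56 (adjusted p = 0.00468 and 0.0923). For Kcna3, IL-2 minus IL-15 was -0.42 (adjusted p = 0.0174 and 0.249) and IL-4 minus IL-15 was -0.52 (adjusted p = 0.0076 and 0.195). On the values as deposited, 0 of the 26 passed.

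Of all genes, the limma fit called 8.6% between IL-2 and IL-15, 3.64% between IL-4 and IL-15, 3.54% between IL-15 and IL-21, and 0.011% between IL-7 and IL-15. The block raised the first 3 of these shares to 22.4%, 14.1% and 12.6%. Between the remaining pairs the share was 2.07% for IL-2 and IL-4, 1.42% for IL-2 and IL-7, 6.58% for IL-2 and IL-21, 1.34% for IL-4 and IL-7, 3.81% for IL-4 and IL-21, and 2.24% for IL-7 and IL-21.

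Kcna3 and Kcna2 are near neighbours on chromosome 3. In the RefSeq annotation the order runs from Kcna3 to AI504432, a long noncoding RNA, then Gm38712, Kcna2, Kcna10 and Cym. Gm38712 and Kcna10 were not tested here. AI504432 had a mean level of 10.59 in media control and, like Kcna3, was lower with IL-2 (-1.23 ± 0.26, adjusted p = 0.0033) and IL-4 (-1.12 ± 0.26, adjusted p = 0.011). Its differences of -0.73 with IL-21, -0.65 with IL-7 and -0.27 with IL-15 did not pass. Kcna2 is not counted beside them, because it was chosen by its fall with IL-2. Cym, a gene of a digestive protease, was under background at 4.81 and passed in none of the 5 comparisons. Next to Kcnn4 on chromosome 7, Smg9, a factor of nonsense-mediated decay, fell by 0.44 ± 0.13 with IL-2 (adjusted p = 0.0284) and by 0.49 ± 0.13 with IL-21 (adjusted p = 0.0307), while Tescl, Lypd5 and Irgc1 passed in none.

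The genes whose levels went most closely with each member were sought among genes whose group means span at least 1 on the log2 scale, by Pearson r over the 18 arrays after the mean of each replicate number was taken off. The arrays share their cultures, their controls and their normalization, so these r are a description. For Kcna2, among 1949 genes, they were Cd27 (r = 0.993), a costimulatory receptor of the TNFR family, Rnf167 (0.982), Pink1 (0.981), Cd1d1 (0.981) and Fam189b (0.977). Cd27 had a mean of 11.43 in media control, 11.09 with IL-15, 10.72 with IL-7, 10.65 with IL-21, 10.22 with IL-4 and 9.07 with IL-2, which is the order of Kcna2 on a smaller span. For Kcna3 they were Saraf (0.952), which closes store-operated calcium entry, then Wls (0.949), Susd6 (0.947), Ppcdc (0.944) and Prkch (0.944). For Kcnn4 they were Tecpr1 (0.969), Ifnar1 (0.966), a chain of the type I interferon receptor, Susd6 (0.964), Tsc22d1 (0.961) and Prkch (0.959), a protein kinase C of T cells. Susd6 and Prkch were on the lists of both Kcna3 and Kcnn4. Among the members r was 0.906 for Kcna3 with Kcnn4, 0.810 for Kcna2 with Kcnn4 and 0.745 for Kcna2 with Kcna3.

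The other potassium channel genes were mostly under background and few of them changed. Of 29 other Kv channel subunits tested, 1 was above background. Kcnq5 rose from 6.43 in media control, under background, by 1.48 ± 0.24 with IL-2 (adjusted p = 0.000482), by 1.15 ± 0.24 with IL-4 (adjusted p = 0.00538) and by 1.22 ± 0.24 with IL-7 (adjusted p = 0.017). No other Kv subunit was called by limma without the block. With it Kcnq5 also passed for IL-21 (0.69 ± 0.24, adjusted p = 0.0316), and Kcnh3, the 1 subunit above background, for IL-7 (-0.47 ± 0.29, adjusted p = 0.0377). Over all genes 7.83% were called higher for IL-2, 3.98% for IL-4, 3.39% for IL-21, 0.934% for IL-7 and 0% for IL-15, and with the block 15.5%, 12.9%, 10.6%, 8.34% and 0%. The errors given for genes are those of the fit without the block. Of 12 auxiliary Kv subunits only Kcnip2 passed, with a difference of -0.81 ± 0.25 for IL-2 (adjusted p = 0.0339) from a control level of 6.75, under background. With the block it passed for IL-4 and IL-21 too.

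Of 12 channels of the tandem-pore domain family (Kcnk genes), which carry background potassium current, Kcnk5 and Kcnk6 rose, both from just under background, and none fell. Kcnk5 rose from 7.37 by 2.57 ± 0.27 with IL-4 (adjusted p = 3.9e-05), by 1.73 ± 0.27 with IL-2 (adjusted p = 0.000469) and by 1.57 ± 0.27 with IL-7 (adjusted p = 0.0107). Kcnk6 rose from 7.36 by 0.75 ± 0.13 with IL-2 (adjusted p = 0.000979) and by 0.86 ± 0.13 with IL-4 (adjusted p = 0.000672). With the block Kcnk7 was called higher too, in the IL-2, IL-4 and IL-21 groups, and Kcnk5 with IL-21. Of 15 inward rectifiers, Kcnj8 alone passed without the block, higher by 1.65 ± 0.20 with IL-21 (adjusted p = 9.73e-05) and under background in the control at 5.56. With the block Kcnj8 and Kcnj13 were called lower with IL-4. Of 10 calcium or sodium activated channel genes other than Kcnn4, Kcnmb4, a subunit of the large-conductance channel, fell by 1.22 ± 0.26 with IL-2 (adjusted p = 0.00435) and fell by 1.42 ± 0.26 with IL-4 (adjusted p = 0.00277). Its control level was 7.61 and its mean over the 18 arrays under background, so these sizes are not exact. No other of the 10 passed without the block, and with it Kcnmb4 and Kcnt2 were called lower with IL-7 and Kcnmb4 with IL-21.

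The 6 tested regulators of Kv1.3 and KCa3.1, all above background, showed no call in any of the 5 comparisons, and with the replicate block only Pgam5 passed, higher by 0.26 ± 0.12 with IL-4 (SE without the block, adjusted p = 0.0421 with it and 0.231 without). They were Dlg1, a scaffold that binds Kv1.3, Nme2, Phpt1, Mtmr6, Pgam5 and Trim27, most of which act on phosphorylation of KCa3.1 or on the lipids that govern it. Nme2 is the kinase and Phpt1 the phosphatase of the histidine that switches KCa3.1. Their list mean was 10.71 in media control, 10.80 with IL-2 and 10.77 with IL-4.

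Genes of the calcium entry that the potassium channels sustain were often lower in the same groups. Of 23 tested, 21 of them above background, 11 fell and 1 rose with IL-2, 5 fell and 1 rose with IL-4, 5 fell and 3 rose with IL-21, 1 fell with IL-7, and none passed with IL-15. Of all genes 8% were called lower for IL-2, 5.1% for IL-4, 3.29% for IL-21, 0.747% for IL-7 and 0% for IL-15. The shares called higher were 7.83%, 3.98%, 3.39%, 0.934% and 0% in that order. Only 41.9% of all genes were above background, so they are not a set like this list. The median difference of the list was -0.58 for IL-2, -0.29 for IL-4, -0.24 for IL-21, -0.22 for IL-7 and -0.11 for IL-15, beside medians over all genes between -0.02 and 0.01. With the replicate block 14, 12, 9, 8 and 0 fell and 3, 1, 4, 3 and 0 rose in that order. The shares of all genes with the block were 15.1%, 12.9%, 10.5%, 8.01% and 0% lower. Those higher were 15.5%, 12.9%, 10.6%, 8.34% and 0%.

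Among the store sensors and channels, Orai2 fell by 1.66 ± 0.24 with IL-2 (adjusted p = 0.000252), by 1.23 ± 0.24 with IL-4 (adjusted p = 0.00404) and by 1.04 ± 0.24 with IL-21 (adjusted p = 0.0139). Stim2, a sensor of store calcium, fell by 1.02 ± 0.27 with IL-2 (adjusted p = 0.0162) and by 0.92 ± 0.27 with IL-4 (adjusted p = 0.0441). Saraf, a brake on this entry, fell by 0.94 ± 0.18 with IL-21, 1.10 ± 0.18 with IL-4 and 1.14 ± 0.18 with IL-2. Orai1, the main pore of T cells, passed in none of the comparisons.

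Ppp3ca, a catalytic subunit of calcineurin, fell with 4 of the 5 cytokines, by 0.62 ± 0.13 with IL-21, 0.71 ± 0.13 with IL-7, 0.83 ± 0.13 with IL-4 and 0.97 ± 0.13 with IL-2. Plcg1, the phospholipase that makes the signal for store release, fell by 0.95 ± 0.23 with IL-2 (adjusted p = 0.00914). Atp2a3, a pump that refills the store, fell by 0.98 ± 0.31 with IL-2 (adjusted p = 0.0405). Another pump of the store went up, Atp2a2, by 0.53 ± 0.15 with IL-21, 0.58 ± 0.15 with IL-4 and 0.68 ± 0.15 with IL-2, and Nfatc2 and Atp2b1 were the other 2 that rose with IL-21. These 3 were named after their values were seen.

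**Figure D4:**
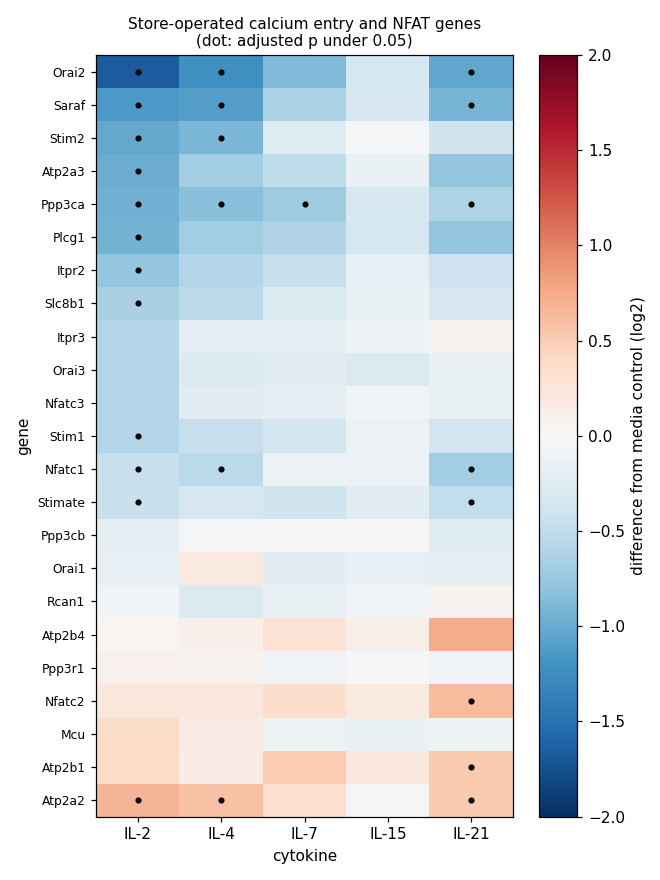
Difference from media control on the log2 scale (colour, blue lower and red higher, from -2 to 2) of the 23 tested genes of store-operated calcium entry and NFAT (rows, ordered by the IL-2 difference) for each cytokine (columns). A dot marks an adjusted p under 0.05 in the limma fit, with 12 dots for IL-2 and none for IL-15.

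Among 17 other channels and pumps of lymphocytes, 2 rose and 3 fell with IL-2, 1 rose and 3 fell with IL-4, 2 rose and 1 fell with IL-21, and 1 rose with IL-7. With the block 4 rose and 8 fell in the IL-2 group, 5 rose and 7 fell in that of IL-4, 4 rose and 6 fell in that of IL-21, 3 rose and 4 fell in that of IL-7, and none passed for IL-15. Of all genes, 7.83% were higher and 8% lower for IL-2 without the block, and 15.5% and 15.1% with it. For IL-4 the shares were 3.98% and 5.1% without it, and 12.9% and 12.9% with it. For IL-21 they were 3.39% and 3.29%, then 10.6% and 10.5%, and for IL-7 0.934% and 0.747%, then 8.34% and 8.01%. The list had 16 genes above background, while 41.9% of all genes were, so the sets are not alike. Slc12a7, a cotransporter that moves potassium and chloride out of the cell, fell by 2.36 ± 0.41 with IL-2 (adjusted p = 0.000861) and fell by 1.71 ± 0.41 with IL-4 (adjusted p = 0.0149). Atp1b3, a subunit of the sodium and potassium pump, fell by 0.72 ± 0.14 with IL-2 and 0.58 ± 0.14 with IL-4. The proton channel gene Hvcn1 fell by 0.70 ± 0.19 with IL-2, and Lrrc8d, of the volume-regulated anion channel, fell by 0.78 ± 0.20 with IL-4 and 0.96 ± 0.20 with IL-21. Trpm4, a calcium-activated cation channel that depolarises T cells, rose by 1.22 ± 0.24 with IL-21 (adjusted p = 0.00542). Clcn3, an exchanger of chloride and protons, rose in all groups but IL-15, by 1.14 ± 0.12 in the IL-4 group.

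Markers of T cells were above background in 7 of 7 tested genes, and by their means over the 18 arrays Cd4 and every gene of the B cell, NK cell and red cell lists were under background. The T cell list itself was lower with IL-2, at a mean of 11.74 to 12.14 over the arrays against 12.38 to 12.71 in media control, and Cd3e, Cd3g, Cd3d and Cd8b1 fell. With IL-4, Cd3e and Cd2 fell. Of all genes 8% were called lower for IL-2 and 5.1% for IL-4. With the replicate block 5 T cell markers fell with IL-2, and 4 fell and 1 rose with IL-4. In that fit 3 fell with IL-7, and 2 fell and 1 rose with IL-21. The shares of all genes called lower with the block were 15.1% for IL-2, 12.9% for IL-4, 8.01% for IL-7 and 10.5% for IL-21. Those called higher were 12.9% for IL-4 and 10.6% for IL-21. The myeloid and dendritic list, with 1 of 9 above background, had array means of 5.68 to 6.84 in media control and 5.24 to 5.60 with IL-2, where Itgax and Cd68 fell, and 5.51 to 5.75 with IL-4. The same list ran from 5.44 to 5.84 with IL-7, 5.31 to 6.35 with IL-15 and 5.57 to 6.41 with IL-21. The B cell list had array means of 5.55 to 5.67 in media control and lower ones in all cytokine groups, of 5.09 to 5.40 with IL-2, 5.27 to 5.39 with IL-4, 5.16 to 5.29 with IL-7, 5.38 to 5.47 with IL-15 and 5.20 to 5.34 with IL-21. Of its genes Cd79a, Cd79b and Ms4a1 fell with IL-2, Cd79a and Ms4a1 with IL-7, and Cd79b with IL-21. The shares of all genes called lower were 8%, 0.747% and 3.29% in these 3 groups. Whether other cells had a part in the levels of the potassium channel genes was not tested.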

How the data were processed

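RNA of 18 samples was hybridised to Affymetrix mouse arrays after 3′ amplification. The deposited log2 values per probe set were made by the authors with RMA in Expression Console 1.1 after scanning with Command Console 3.1.1. Of 45101 probe sets, 35890 are listed in the platform annotation used here, 34958 with 1 gene symbol, and 932 with several symbols were left out.

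The members and gene lists were chosen with earlier results of these data known. The 18 columns were quantile normalized and compared with limma 3.58.1 (R 4.3.3) by lmFit with a mean per group over all 18 arrays leaving 12 residual degrees of freedom, and with two-sided eBayes tests, with Benjamini-Hochberg adjustment over the 18194 genes of a comparison and a threshold of 0.05. Genes under background stayed in the fit. The fit was tested on simulated data. Errors of differences are limma standard errors, and 3 arrays per group limit the precision.

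The deviations of arrays from their group means were correlated between groups. For 45 pairs that share a replicate number the lowest r was 0.442 and the median 0.598, and for 90 other pairs the highest was 0.383, so the number pairs the samples and was used as a block in an alternative fit. Named genes are the members, up to 6 called genes with the largest change in each list, the 5 genes most like each member, and annotated neighbours. The regulators, Orai1, Atp2a2, Nfatc2, Atp2b1, the called cell type markers and genes called only with the replicate block were named outside this rule. Lists covered potassium channel families, their regulators, calcium entry and NFAT, other channels and pumps, cell type markers and genes of other tissues. Other alternatives were the values as deposited, arrays left out, an intensity trend, genes above background only and all probe sets. Python 3.11.15, pandas 2.3.3 and matplotlib 3.10.9 made tables and figures.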

Additional observations from a re-analysis of the deposited data

How the results depend on the processing

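All 15 differences of the members from media control kept their sign under each alternative run, but on the values as deposited those for IL-7 came close to 0, at -0.0032 for Kcna3 and -0.0468 for Kcnn4. On those values the median difference of all genes was 0.41 for IL-7, 0.43 for IL-4 and 0.43 for IL-21, so a shift of whole arrays enters these sizes. Kcna2 moved by less than its pooled SD of 0.86 in each, which is wider than its IL-15 difference. On the values as deposited the calls were lost for Kcna3 with IL-2 (-0.72) and IL-4 (-0.35) and for Kcnn4 with IL-2 (-0.78), IL-4 (-0.45) and IL-21 (-0.18), also with the replicate block added, a combination chosen after seeing the data. Without the 3 arrays on the lower scale Kcna3 with IL-2 (-0.66) was lost, and with all probe sets Kcnn4 with IL-21 (-0.62). The replicate block on the normalized values added calls for Kcna3 with IL-7 (-0.46) and IL-21 (-0.62) and for Kcnn4 with IL-7 (-0.49), and ended no member call against media control.

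With arrays or whole replicate numbers left out, Kcna2 ran from -5.05 to -4.17 with IL-2, -2.87 to -1.995 with IL-4, -2.02 to -1.04 with IL-7, -1.43 to -0.20 with IL-15 and -2.17 to -1.20 with IL-21. Kcna3 ran from -0.73 to -0.64 with IL-2 and from -0.91 to -0.68 with IL-4, and Kcnn4 from -0.93 to -0.72 with IL-2, -0.97 to -0.83 with IL-4, -0.56 to -0.41 with IL-7 and -0.73 to -0.47 with IL-21. Kcna3 lost its IL-2 call without media control replicate 2, IL-2 replicate 1 or 3, or all of replicate 1 or 2, and its IL-4 call without media control replicate 2, IL-4 replicate 1 or 3, or all of replicate 1 or 3. The IL-21 call of Kcnn4 was lost without any single control or IL-21 array and without all of replicate 1 or 2, which also ended its IL-2 and IL-4 calls. Without all of replicate 3, Kcnn4 passed with IL-7 (adjusted p = 0.0488).

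The small difference between IL-2 and IL-4 changed sign, for Kcna3 to -0.37 on the deposited values and between -0.0096 and 0.22 with arrays left out (without IL-4 replicate 3), and for Kcnn4 to -0.33 and between -0.0145 and 0.17 (without IL-2 replicate 2). On the deposited values the median difference of all genes, IL-2 minus IL-4, was -0.42, so the sign there holds a shift of whole arrays. Between IL-15 and both IL-2 and IL-4, Kcnn4 passed when IL-15 replicate 3 was left out (adjusted p = 0.00639 and 0.00723). The count of all genes called against media control was 2880 for IL-2, 1651 for IL-4, 306 for IL-7 and 1214 for IL-21, and 5560, 4686, 2974 and 3837 with the replicate block. With arrays or whole replicate numbers left out it ran from 962 to 4303, 373 to 2323, 0 to 642 and 245 to 1685, lowest without replicate 1 and highest without replicate 3 in each, and from 0 to 1 for IL-15. It was 74, 67, 8 and 90 on the deposited values and 754, 710, 165 and 555 on those with the block. With all probe sets it was 4613 for IL-2, and with genes above background only it was 481 for IL-7, a fit that leaves out Kcna2 and Kcna3.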
